A study of Mus musculus with 30 samples.

Results

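pacDNA-L9 at 5.3 mg/kg, the lowest of its 3 doses, was compared with no treatment in the quadriceps of HSA-LR mice. The comparison takes 12 of the 30 RNA-seq libraries of the series, 4 from treated mice (A to D) and 8 from nontreated mice (NT 1 to 8), which were chosen by their labelled treatment. HSA-LR20b mice carry a human skeletal actin transgene with an expanded CTG repeat and model myotonic dystrophy type 1 (DM1). The muscle actin promoter of the transgene restricts the repeat RNA to skeletal muscle, so the model lacks the disease in other organs. Both groups carry the transgene, which the labels give as genotype DM1. The strain is given as FVB/N for A, B and NT 1 to 6, and is not given for C, D, NT 7 and NT 8. The mice were 8 weeks old when injected through the tail vein, and muscle was taken 2 weeks after the last injection. NT mice received no injection, so that the polymer, the oligonucleotide and the injection differ together between the groups. Where named, WT mice are untreated FVB/N mice of the same series (n = 5), which lack the transgene.

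In DM1 an RNA with a long CUG repeat folds into hairpins that hold muscleblind-like (MBNL) proteins in nuclear foci, and the loss of free MBNL shifts the splicing of many muscle transcripts. L9 is a short oligonucleotide of locked nucleic acid built of CAG triplets, which pairs with CUG repeats and is meant to release MBNL without cutting the RNA. In pacDNA-L9 it is attached to a bottlebrush polymer with polyethylene glycol side chains. The comparison asks whether the lowest dose left a trace in the levels of whole genes, including other transcripts that hold CTG runs. Particles and polymers that reach a tissue can be taken up by its resident macrophages, which clear material by endocytosis and digest it in lysosomes.

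The libraries came as 2 deposits with their own sample labels, called sets here. A, B and NT 1 to 6 belong to the first set, C, D, NT 7 and NT 8 to the second. Each library held 16362704 to 23707138 counts, and the sets differed far more than the groups did: the first principal component, 82.7% of the variance, separated them. Each of the 37 mitochondrially encoded genes was listed at 0 in the 4 libraries of the second set, against 6.17% to 8.97% of the counts in the first set. Unprocessed pseudogenes took 5.23% to 5.93% of the other counts in the second set and 0.0684% to 0.158% in the first. The set was therefore a covariate in the fit of the 12 libraries. Counts of *Xist* and of Y-linked genes marked A, B and C as female and D as male, and NT 3, 4, 5 and 7 as female. Skeletal muscle markers dominated every library. *Acta1*, skeletal actin, stood at 39946 ± 6930 CPM (counts scaled to a common library size of 1e6; SD, n = 4) in treated and 47782 ± 8221 (SD, n = 8) in NT mice.

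Transcripts with CTG runs are among the places in the mouse transcriptome where an oligonucleotide of CAG triplets could pair besides the transgene. Whether L9 pairs with any of the runs below was not tested. The study named 21 genes for such repeats, of which it marked *Dap* and *Nr3c1* as holding CAG rather than CTG repeats. All 21 are called CTG repeat genes here, and every count of the list includes *Dap* and *Nr3c1*. The longest uninterrupted CTG run of each was read from GENCODE vM39 transcripts on GRCm39, so sequence outside annotated transcripts was not searched. The sites below show how far the runs differ in length, from the longest to the pair of copies in *Bpgm*, the gene of this list with the smallest p-value. They are written 5′ to 3′ on the transcript strand with T for U, and capitals mark the CTG run.
Mapkap1, first 27 bases of the run of 25 copies: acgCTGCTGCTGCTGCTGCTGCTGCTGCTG
Tnfrsf22, first 27 bases of the run of 10 copies: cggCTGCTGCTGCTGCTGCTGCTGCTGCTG
Mllt3, 8 copies: gagCTGCTGCTGCTGCTGCTGCTGCTGctt
Sdc3, 6 copies: ccaccgCTGCTGCTGCTGCTGCTGgccggc
Dmpk, 3 copies: gcctctcgccCTGCTGCTGggctccgatc
Bpgm, 2 copies: caatgagatataCTGCTGttcttgaacatc
The run of *Mapkap1* lies at chr2:34514409-34514483 (+ strand) in the 3′ UTR of 1 of its transcripts, and that of *Tnfrsf22* at chr7:143203279-143203308 (− strand) in coding sequence. The runs of *Mllt3* (chr4:87951538-87951561, − strand, 5′ UTR), *Sdc3* (chr4:130520078-130520095, + strand, coding), *Dmpk* (chr7:18826423-18826431, + strand, coding) and *Bpgm* (chr6:34464230-34464235, + strand, 5′ UTR) are shown whole. The *Bpgm* stretch crosses an exon junction. *Dmpk* is the mouse counterpart of the gene that carries the repeat in human DM1. For *Bpgm*, *Dap*, *Nr3c1*, *Papss2* and *Tcf4* the longest run in these transcripts was 2 copies, which is shorter than L9 itself.

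None of the 21 CTG repeat genes differed between treated and NT mice at an adjusted p under 0.05. Fold changes are given as log2 of treated over NT from the fit with the set as covariate, with 95% intervals for each gene. All 21 intervals lay within a 2-fold change in either direction, and 15 within a 1.5-fold change. Over all 15867 genes tested, 77.7% had an interval within a 2-fold change. *Dmpk*, a kinase gene, was at 620 and 556 CPM in A and B and at 407 to 695 CPM (median 582) in NT 1 to 6. In the second set it was at 473 and 493 CPM in C and D and at 498 and 474 CPM in NT 7 and 8. The groups overlapped in both sets, with a log2 fold change of 0.02 (95% interval −0.25 to 0.29).

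*Mapkap1*, which encodes a subunit of the mTORC2 kinase complex and has the longest run, was at 46.8, 47.6, 44.8 and 41.0 CPM in A to D. NT mice were at 44.5 to 47.7 CPM in the first set and at 47.6 and 40.4 CPM in the second. Its interval was among the narrowest of the list, −0.16 to 0.18 on the log2 scale. *Tnfrsf22*, a decoy receptor for TRAIL, had the widest reach below 0, with a log2 fold change of −0.34 and an interval from −0.85 to 0.17, which leaves room for a level down to 0.556 of that in NT. In A and B it was at 4.34 and 5.05 CPM, within the NT range of 3.45 to 6.87. In C and D it was at 2.99 and 4.36 CPM, below NT 7 (7.52) and NT 8 (6.06). *Armcx6* had the highest upper bound, 0.86.

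*Bpgm*, which encodes the enzyme that makes 2,3-bisphosphoglycerate, was the single member with an unadjusted p under 0.05 and the single one whose treated mice did not overlap NT in either set. It was at 101 and 79.7 CPM in A and B and at 98.1 and 94.2 CPM in C and D. NT mice were at 102 to 132 CPM (median 113) in the first set and at 101 and 119 CPM in the second. All 4 treated mice were thus below the NT mice of their set, by small margins. The log2 fold change was −0.28 ± 0.10 (SE), with an unadjusted p of 0.0171 and an adjusted p of 0.998 (edgeR). Among all genes tested, 1.02% were lower at an unadjusted p under 0.05 and 0.384% were lower with no overlap in either set. The 1 lower gene among the 21 makes 4.76% of the list.

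The list had a median log2 fold change of 0.10, against 0.0023 over all genes, and 13 of the 21 genes were above 0. The median was 0.13 in the first set and −0.10 in the second, and 15 of the 21 genes were above 0 in the first set against 5 in the second. The 8 genes with runs of 8 or more copies had log2 fold changes on both sides of 0, from −0.34 for *Tnfrsf22* to 0.31 for *Pcolce*, as the plot of the 21 intervals shows. All tested genes were also grouped by their longest annotated CTG run. The 43 genes with 8 or more copies had a median log2 fold change of 0.0186, and 39.5% of them were below 0. The 196 genes with 5 to 7 copies had a median of 0.0090. The 3175 genes with 3 to 4 copies had one of 0.0028, with 49.5% below 0. The 12382 genes with at most 2 copies had a median of 0.0016, with 49.7% below 0. Of the 43, 0 were lower and 3 higher at an unadjusted p under 0.05, where 1.02% and 2.68% of all genes were. Their median was 0.10 in the first set and −0.05 in the second.

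**Figure D1:**
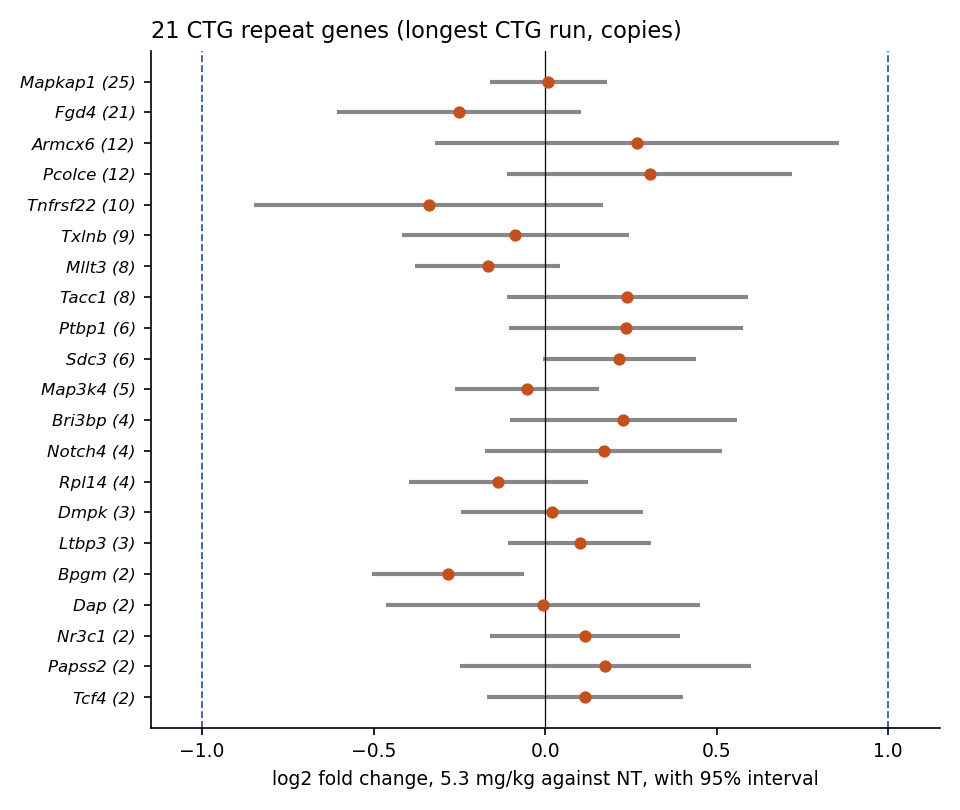
Log2 fold change at 5.3 mg/kg against NT (x axis) with its 95% interval (grey bars) for the 21 CTG repeat genes, ordered by the copies of their longest CTG run (in parentheses). All bars lie between the dashed lines at a 2-fold change, and the bar of Bpgm, with 2 copies, alone lies wholly below 0.

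Over all 15867 genes, 0 (0%) had an adjusted p under 0.05 in edgeR's quasi-likelihood test. At an unadjusted p under 0.05 there were 425 higher genes (2.68%) and 162 lower genes (1.02%). DESeq2 on the same 12 libraries called 14 genes, 13 of them higher, and limma-voom called 0, with 571 higher and 245 lower genes at an unadjusted p under 0.05. Without a filter on low counts, edgeR called 9 genes, all higher. Of the 20 genes with the smallest p-values 19 were higher, and 5 were on the list of 22 macrophage markers. The 4 treated mice did not overlap the NT mice of their own set for 110 higher genes (0.693%) and 61 lower genes (0.384%), among them 18 of the 20 genes with the smallest p-values.

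*Mpeg1*, which encodes the pore-forming macrophage protein perforin-2, had the smallest p-value of all genes (chr19:12438114-12442649). It was at 12.7 and 8.4 CPM in A and B, against 1.51 to 4.13 CPM (median 3.70) in NT 1 to 6. In the second set it was at 15.2 and 13.0 CPM in C and D, against 5.92 and 4.97 CPM in NT 7 and 8. Every treated mouse was above all 8 NT mice. The log2 fold change was 1.54 ± 0.22 (SE), a 2.90-fold higher level with an interval of 2.10- to 4.03-fold. The p-value was 3.3309e-06 and the adjusted p 0.0529, which missed the threshold of 0.05. Within sets the log2 fold change was 1.65 and 1.36. Without NT 6 the gene passed the threshold, alone among all genes, and DESeq2 gave it an adjusted p of 2.8e-07.

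*Csf1r*, the receptor for the growth factors on which macrophages depend, was at 26.5 and 25.9 CPM in A and B, against 12.1 to 15.9 CPM (median 13.9) in NT 1 to 6. In C and D it was at 23.1 and 24.0 CPM, against 19.8 and 16.5 CPM in NT 7 and 8. The margin was thus narrower in the second set, with a log2 fold change of 0.91 in the first and 0.37 in the second. The fit over both sets gave 0.70 ± 0.13 (SE), with an adjusted p of 0.195. *Cd68*, a glycoprotein of the lysosomes of phagocytes, was at 10.8, 17.5, 11.3 and 17.6 CPM in A to D. NT mice were at 3.36 to 7.51 CPM (median 5.85) in the first set and at 5.31 and 7.09 CPM in the second. All 4 treated mice were above all 8 NT mice, with a log2 fold change of 1.30 ± 0.23 (SE) and an adjusted p of 0.195. WT mice were lower than NT mice, at 1.28 to 2.93 CPM.

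*Lyz2*, lysozyme of phagocytes, was at 80.9 and 47.2 CPM in A and B, against 21.4 to 45.6 CPM (median 28.3) in NT 1 to 6. C and D were at 70.6 and 64.7 CPM, against 48.7 and 26.7 CPM. B was just above the highest NT mouse of its set, and the log2 fold change was 1.00 ± 0.23 (SE). *Ctss*, the lysosomal protease cathepsin S of antigen-presenting cells, was at 9.93, 6.94, 11.1 and 8.95 CPM in A to D, against 2.03 to 6.62 CPM in NT 1 to 6 and 5.52 and 3.66 CPM in NT 7 and 8. *Laptm5*, a lysosomal membrane protein of blood-derived cells, had a log2 fold change of 0.98 ± 0.22 (SE). *Slc12a4*, a potassium-chloride cotransporter that is not a macrophage marker, had one of 0.58 ± 0.14 (SE), with 14.5 to 24.9 CPM in treated mice and 10.9 to 18.7 CPM in NT mice. These genes had adjusted p-values of 0.422 to 0.575.

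*Retnla*, a secreted resistin-like protein that alternatively activated macrophages make, went the other way. It was at 10.2 and 6.37 CPM in A and B, against 13.2 to 29 CPM (median 16.9) in NT 1 to 6. C and D were at 10.2 and 7.48 CPM, against 21.8 and 14.2 CPM in NT 7 and 8. Every treated mouse was below all 8 NT mice, with a log2 fold change of −1.13 ± 0.21 (SE) and an adjusted p of 0.333. It was the single lower gene that DESeq2 called, with an adjusted p of 0.00235. The other 5 lower genes that met the naming rule had smaller differences, with log2 fold changes from −0.39 to −0.26. They were *Zfp280b*, a zinc finger gene, *Ythdc1*, a nuclear reader of methylated adenosine in RNA, *Whamm*, which promotes actin branching at membranes, *Dlg1*, a scaffold of cell junctions, and *Spry2*, an inhibitor of receptor tyrosine kinase signalling. *Ythdc1* was at 24.4 and 25.6 CPM in A and B, against 29.99 to 32.5 CPM, and at 34.2 and 33.1 CPM in C and D, against 36.2 and 45.3 CPM.

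**Figure D2:**
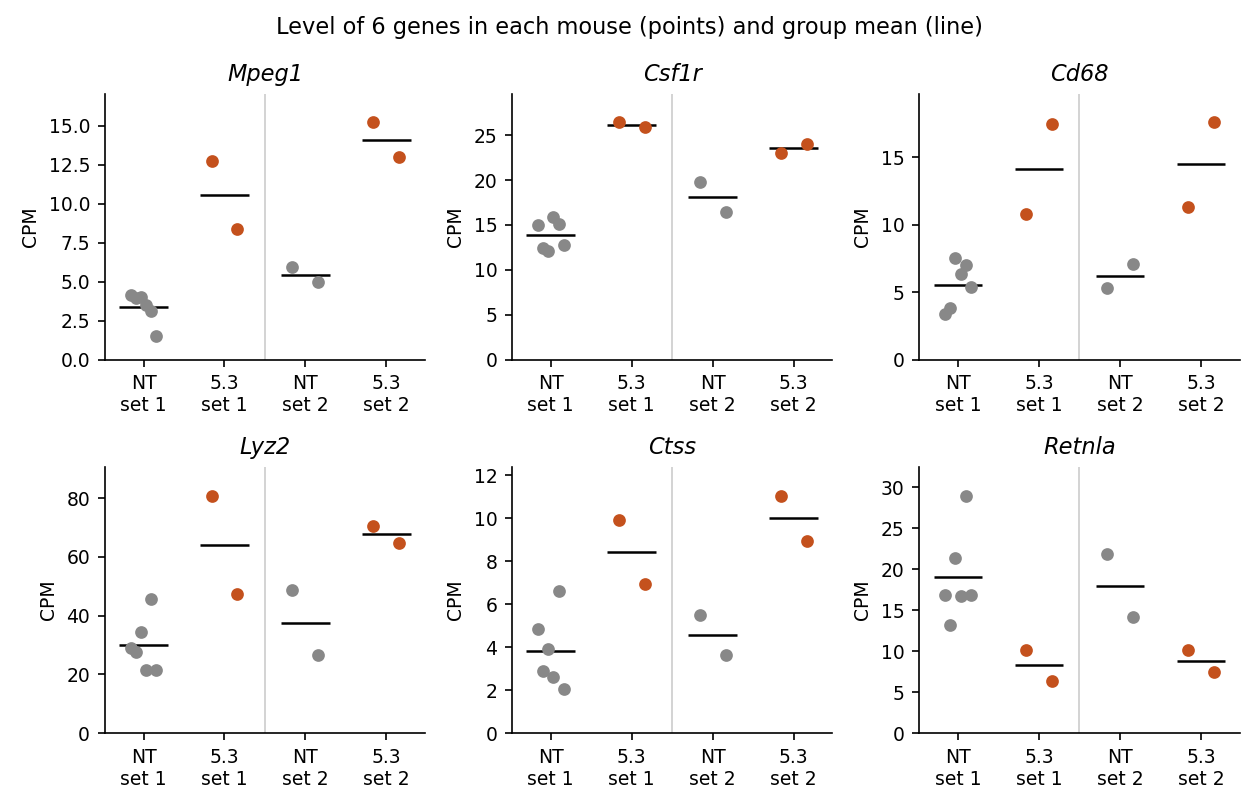
CPM of 6 genes (y axes, starting at 0) in each NT mouse (grey) and each mouse at 5.3 mg/kg (orange), by deposited set, with the group mean as a line. Treated mice lie above the NT mice of their set for Mpeg1, Csf1r, Cd68, Lyz2 and Ctss, and below them for Retnla. Apart from Ctss, the genes were chosen for this lack of overlap.

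The 14 genes that DESeq2 called include 4 from the list of macrophage markers and 10 others, of which 8 met no naming rule and are given here after their values were seen. They are *Wfdc17*, *Cd33*, *Cd84*, *Itgb2*, *Cyth4*, *Hal*, *Hpgds* and *Ms4a7*. *Itgb2* encodes the shared beta chain of the leukocyte integrins, *Cd33* and *Cd84* are receptors of blood cells, and *Hpgds* makes prostaglandin D2. Their log2 fold changes in the edgeR fit ran from 1.01 for *Cyth4* to 1.86 for *Wfdc17* and *Hpgds*. *Wfdc17* was at 1.55, 1.27, 2.28 and 2.95 CPM in A to D and at 0.209 to 0.899 CPM in NT mice. In 7 of these 8 genes the treated mice did not overlap NT in either set, the exception being *Hal*. Of all genes, 0.693% were higher with no overlap in either set. The 8 genes were picked by their difference in these same mice, so their lack of overlap adds no support. Since DESeq2 and edgeR used the same libraries, the former is no independent support.

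Of the 22 macrophage markers, 19 had enough counts to be tested. Of these 19, 11 (57.9%) were higher at an unadjusted p under 0.05 and 0 were lower, against 2.68% and 1.02% of all genes. The treated mice did not overlap NT in either set for 6 of them (31.6%), against 0.693% of all genes. The list was drawn up with earlier results of these data known, so the count is a description. Its median log2 fold change was 0.59, against 0.0023 for all genes, and was 0.70 in the first set and 0.61 in the second. In both sets 15 of the 19 were above 0. Besides the genes above, the complement components *C1qa*, *C1qb* and *C1qc*, which tissue macrophages make, had log2 fold changes of 0.57, 0.71 and 0.77, *Adgre1* (F4/80) 0.75 and the mannose receptor *Mrc1* 0.59. *Trem2*, a lipid receptor of phagocytes, had the highest, 1.86 ± 0.54 (SE), at 2.22 CPM in treated and 0.665 CPM in NT mice. Other members did not share the difference: *Cd163*, the haemoglobin scavenger receptor, had 0.03 ± 0.17 (SE), *Gpnmb* −0.05 ± 0.30 and *Cd14* −0.19 ± 0.26. In bulk muscle, more macrophages and more RNA of these genes per macrophage cannot be told apart.

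The summed CPM of the 22 markers was 270, 200, 239 and 227 in A to D. In NT 1 to 6 it was 99.4 to 189 (median 125), and in NT 7 and 8 it was 175 and 124. The lowest treated mouse, B, was thus above the highest NT mouse, NT 5. The 5 WT mice were at 84.1 to 134. Sex moved with treatment in the first set, where both treated mice were female and 3 of the 6 NT mice were. Female NT mice 3, 4 and 5 had sums of 149, 117 and 189, below both. With sex as a further covariate, 9 of the 19 markers were higher at an unadjusted p under 0.05, as were 377 of all 15867 genes. Each other fit was filtered anew. In the first set alone 7 of 21 markers were higher, and 660 of all 14842 genes. In the second alone 9 of 19 markers were, and 346 of all 15591 genes. Without mouse A it was 6 of 20 markers, and without each other mouse it was 9 to 13 of 19 to 21.

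**Figure D3:**
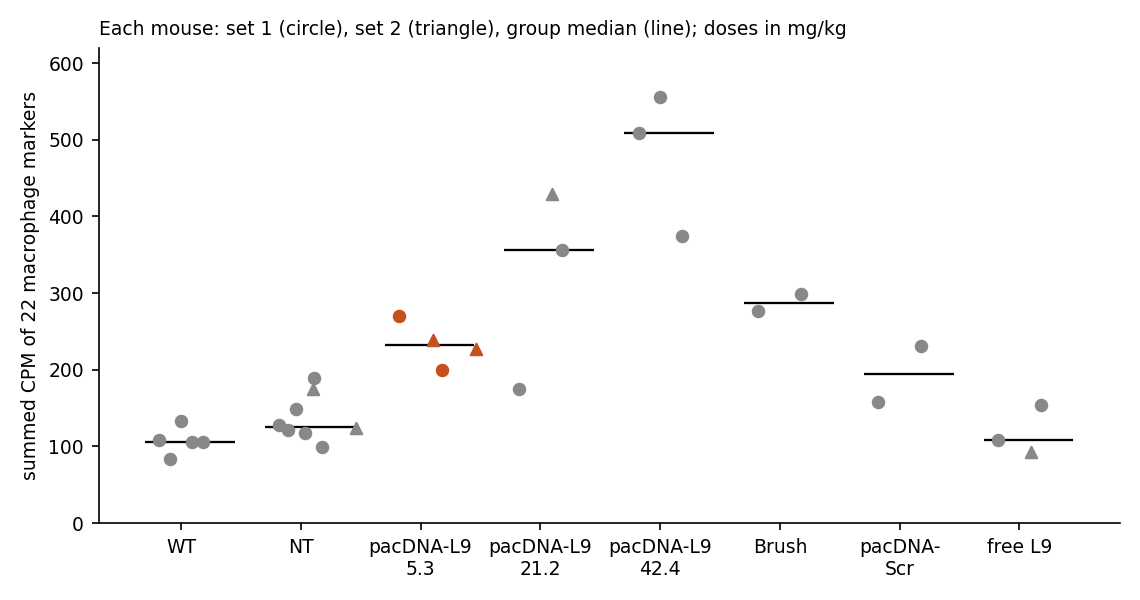
Summed CPM of 22 macrophage markers (y axis) in each of the 30 mice by group, with doses in mg/kg, circles for the first and triangles for the second deposited set and a line at the group median. The 4 mice at 5.3 mg/kg (orange) lie at 200 to 270, above the 8 NT mice at 99.4 to 189.

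Other lists of uptake and sensing were less uniform. Of 16 scavenger and endocytic receptors tested, 6 (37.5%) were higher at an unadjusted p under 0.05, against 2.68% of all genes, with a list median of 0.31. *Stab1*, the scavenger receptor stabilin-1, was at 37.6 and 26.8 CPM in A and B, against 9.55 to 23.4 CPM in NT 1 to 6, and at 15.0 and 18.2 CPM in C and D, against 13.9 and 12.3 CPM. The list median was 0.44 in the first set and 0.03 in the second. All 14 nucleic acid sensors tested had a log2 fold change above 0, with a median of 0.38, and 2 (14.3%) were higher at an unadjusted p under 0.05. Their median was 0.46 in the first set and 0.08 in the second. *Unc93b1*, which carries the nucleic acid-sensing Toll-like receptors to endosomes, had 0.50 ± 0.16 (SE). Of 28 lysosome genes, 3 (10.7%) were higher, *Ctss* among them, and the list median was 0.10, with 27 intervals within a 2-fold change. Of 20 interferon-stimulated genes, 0 passed an unadjusted p of 0.05, and 9 were above 0 (median −0.02). Only 9 of their intervals lay within a 2-fold change. NT mice varied widely in that list, with summed CPM of 45.1 to 193 in the first set, against 54.7 and 86.8 in A and B. In the second set C and D, at 60.9 and 53.8, were above NT 7 and 8, at 48.8 and 43.9.

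Markers of other blood cells were scarce. Of 18 markers of T, B and NK cells 1 was tested, *Ighm*, the immunoglobulin mu chain, with a log2 fold change of −0.66 (unadjusted p = 0.382). Of 12 neutrophil markers 2 were tested, and of 18 cytokines and chemokines of the plasma panel 4 were. Among the latter *Il12a*, a subunit of interleukin-12, was at 2.22 to 3.21 CPM in treated and 2.76 to 5.18 CPM in NT mice, with a log2 fold change of −0.64 ± 0.20 (SE) and an unadjusted p of 0.00719. Endothelial markers (15 tested) and pericyte and smooth muscle markers (12) had 0 genes at an unadjusted p under 0.05, medians of 0.11 and −0.03, and all intervals within a 2-fold change.

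Fibroblast and matrix genes had a median log2 fold change of 0.41, with 18 of 22 above 0. Of the 22, 1 (4.55%), *Fn1*, was higher at an unadjusted p under 0.05, against 2.68% of all genes. Only 9 of the 22 intervals lay within a 2-fold change. *Fn1*, fibronectin, was at 257 and 209 CPM in A and B, against 64.7 to 134 CPM in NT 1 to 6. In the second set C and D, at 132 and 97.3 CPM, lay between NT 8 at 53.5 and NT 7 at 173 CPM. The list median was 0.81 in the first set and −0.28 in the second, so that its direction held in the first set only. The summed CPM of the list was 4053 and 2876 in A and B, against 1285 to 2975 in NT 1 to 6, and 1750.5 and 1234.5 in C and D, against 2337 and 1131.5 in NT 7 and 8. Its levels moved with the macrophage markers in the first set and not in the second, and its part in their difference was not tested.

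Muscle genes themselves differed little. All 12 skeletal muscle identity genes had a log2 fold change below 0, with a median of −0.16 and a range of −0.46 to −0.10, and none passed an unadjusted p of 0.05. All 12 intervals lay within a 2-fold change. The medians were −0.29 and −0.03 in the first and second set. Of 30 nuclear-encoded oxidative phosphorylation genes 0 passed, with a median of −0.03 and all 30 intervals within a 2-fold change. Their median was −0.22 in the first set and 0.20 in the second. Glycolysis and glycogen genes had a median of −0.18, with 17 of 21 below 0, and of −0.29 and −0.05 in the first and second set. *Phka1*, a subunit of muscle phosphorylase kinase, was at 761 and 595 CPM in A and B, against 792 to 998 CPM, and at 639 and 666 CPM in C and D, against 675 and 857 CPM. Its log2 fold change was −0.31 ± 0.11 (SE).

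Genes for fatty acid oxidation and PPAR targets had 21 of 23 log2 fold changes above 0, with a median of 0.26, and *Ppara*, a nuclear receptor that drives fat oxidation, alone was at an unadjusted p under 0.05 (0.68 ± 0.29, SE). Of 18 satellite cell and regeneration genes 3 (16.7%) were higher at that level, against 2.68% of all genes, and the list median was 0.39 in the first set and 0.11 in the second. *Megf10*, an engulfment receptor that satellite cells also express, was at 2.20, 2.60, 2.47 and 2.04 CPM in A to D, above every NT mouse of its set. *Ncam1* had 0.47 ± 0.19 (SE), with 12.8 to 27.3 CPM in NT mice and 5.81 to 10.5 CPM in WT mice. Among 24 fast and slow fibre genes *Casq2*, the calsequestrin of slow and cardiac muscle, alone passed an unadjusted p of 0.05, with 0.84 ± 0.30 (SE). It ran from 15.5 CPM in A to 50.6 CPM in C and overlapped NT in both sets. *Myh7*, the slow myosin, had 1.13 with an unadjusted p of 0.413, and its interval ran from −1.98 to 4.23, the mice of each group differing widely. Immediate early genes had a median of −0.49 in the first and 0.68 in the second and 0 of 17 at an unadjusted p under 0.05. Their levels respond within minutes to handling and stress, and only 5 of their intervals lay within a 2-fold change. The lists of atrophy and autophagy genes (20 tested), insulin and IGF signalling (19), heat shock and stress response (18), adipocyte (16), tendon (9), MHC class II and dendritic cell (9) and mast cell (5) genes also had 0 at that level, with medians from 0.01 to 0.23. Some of these medians had opposite signs in the first and second set: tendon genes had 0.47 and −0.85, mast cell genes 0.56 and −0.84, and atrophy and autophagy genes −0.09 and 0.24. Within a 2-fold change lay 3 of 16 adipocyte, 1 of 5 mast cell and 4 of 9 MHC class II and dendritic cell intervals. Of tendon genes 5 of 9 did and of heat shock and stress response genes 10 of 18, against 77.7% of all genes. The shares were 17 of 20 for atrophy and autophagy and 17 of 19 for insulin and IGF signalling.

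**Figure D4:**
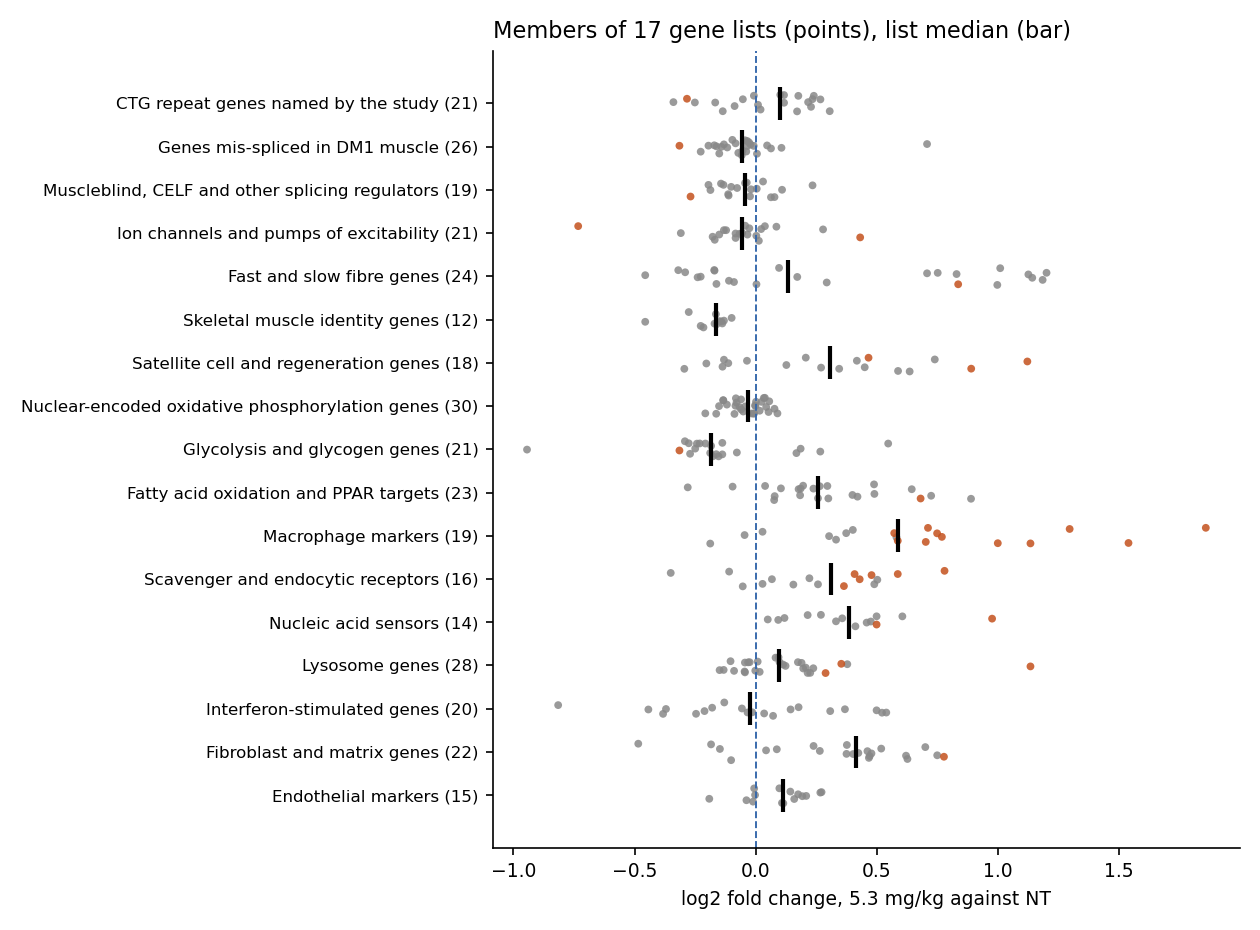
Log2 fold change at 5.3 mg/kg against NT (x axis) of each tested member (points) of 17 gene lists, with the number tested in parentheses, orange where the unadjusted p is under 0.05, a black bar at the list median and a dashed line at the median of all genes. Macrophage markers have 11 orange points, all to the right, and a median of 0.59.

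Genes tied to the disease mechanism were examined for a shift at the level of whole genes. Of 19 splicing regulators, among them the muscleblind and CELF families, 0 were higher and 1 (5.26%) was lower at an unadjusted p under 0.05. The shares of all genes were 2.68% and 1.02%. The lower regulator was *Rbm24*, a muscle splicing factor (−0.27 ± 0.11, SE). All 19 intervals lay within a 1.5-fold change, against 53.9% of all genes. Of 26 genes mis-spliced in DM1 muscle, 1 (3.85%), *Phka1*, was lower at that level, and 25 intervals lay within a 1.5-fold change. The counts hold no splice junctions, so the splicing of these genes was not measured. Of 21 ion channel and pump genes, 1 (4.76%) was higher and 1 (4.76%) lower at an unadjusted p under 0.05. The higher was *Kcnn3*, a calcium-activated potassium channel (0.43 ± 0.15, SE), and the lower *Kcnab1*, a potassium channel subunit (−0.73 ± 0.30). *Kcnn3* was at 18.0 to 29.8 CPM in treated mice, against 15.5 to 22.9 CPM in NT mice and 1.58 to 3.26 CPM in WT mice. *Kcnab1* was at 2.20, 1.75, 1.95 and 2.44 CPM in treated mice, against 2.11 to 6.79 CPM in NT mice and 11.7 to 60.2 CPM in WT mice.

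To see whether the expression changes of the model itself moved, genes changed between NT 1 to 6 and the 5 WT mice, all of the first set, were taken at an adjusted p under 0.05 and a change over 2-fold. Of 13879 genes tested, 319 (2.3%) were higher and 132 (0.951%) lower in NT. The direction of these genes was then read in the second set, C and D against NT 7 and 8, which shares no library with the list. Of the 319 genes, 158 were lower and 161 higher in C and D, with a median log2 fold change of 0.0054, against a median of 1.55 between NT and WT. All genes had a median of −0.0020 in that set, and 50.4% were lower. Of the 124 lowered genes that were tested, 59 were higher and 65 lower, with a median of −0.03. For 178 of the 319 genes and 51 of the 124, the interval in the second set did not hold the point at 50% of the distance from NT to WT. That point could lie on either side of the interval, so these are not counts of genes with a smaller return. The point of a full return lay outside the interval for 292 and 98. The NT to WT distances come from the libraries that chose the genes and may be too large for that reason.

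Of 6 genes chosen in earlier work on these data for their change between NT and WT, 5 had intervals that held 0, *Kcnab1* being the exception. *Sln*, sarcolipin, an inhibitor of the calcium pump, was at 36.5 and 70.0 CPM in A and B and at 54.9 to 115 CPM in NT 1 to 6. In the second set it was at 59.3 and 78.0 CPM, above NT 7 and 8 at 41.1 and 55.8 CPM. A was below NT 1 to 6, B was within their range, and both treated mice of the second set were above NT. *Myo1a*, *Ccdc192* and *Actc1* had log2 fold changes of −0.14 ± 0.31, −0.27 ± 0.25 and 0.13 ± 0.40 (SE), each with opposite signs in the sets, and *Sytl2*, a regulator of vesicle docking, had −0.46 ± 0.30. WT mice had 0.365 to 5.89 CPM of *Sln*.

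The sets were also compared as a whole, since the fold changes of A and B against NT 1 to 6 and of C and D against NT 7 and 8 share no library. Across the 9826 genes of at least 5 CPM the 2 fold changes had Pearson's r = −0.07 and Spearman's rho = −0.17, given as a description, since genes are not independent replicates and mice of a set share their libraries' normalization. The sign agreed in 44.4% of these genes. Of the 100 genes with the smallest p-values in the first set, 52 had the same sign in the second, 42 of the 80 higher and 10 of the 20 lower genes. Of the 100 with the smallest p-values in the second set, 33 had the same sign in the first. Of the 13 macrophage markers at that level, 11 were above 0 in both sets. The interaction of set and treatment had 0 genes (0%) at an adjusted p under 0.05 and 719 (4.53%) at an unadjusted p under 0.05. *Csf1r* was among the latter, with an unadjusted p of 0.0379 in edgeR.

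**Figure D5:**
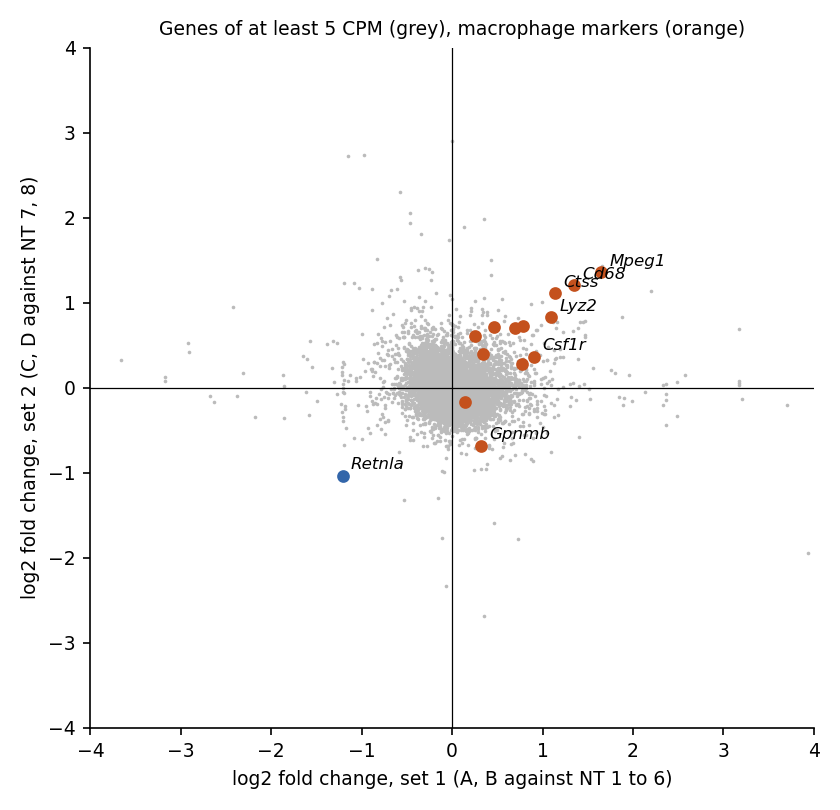
Log2 fold change at 5.3 mg/kg against NT in the first set (x axis) and in the second set (y axis) for the genes of at least 5 CPM (grey; 6 lie outside the plotted range), with 13 macrophage markers in orange and Retnla in blue. The grey cloud has no common slope, and 11 of the 13 orange points lie to the upper right.

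The size of the effects that the data leave outside the intervals depended on the level of a gene. The 95% interval lay within a 2-fold change for 12336 genes (77.7%) and within a 1.5-fold change for 8546 (53.9%). Above 20 CPM these shares were 96.6% and 87.5% for the 4157 genes up to 100 CPM, and 95.9% and 86.2% for the 1358 genes beyond. From 5 to 20 CPM 94.2% of 4311 genes, from 1 to 5 CPM 68.5% of 3780 genes and under 1 CPM 16.3% of 2261 genes had an interval within a 2-fold change. The median distance from the estimate to either bound was a factor of 1.2 from 20 to 100 CPM and of 1.99 under 1 CPM. The intervals are per gene and not adjusted for the number of genes. Intervals wholly above a 2-fold higher level were found for 5 genes, *Mpeg1*, *Wfdc17*, *Cd84*, *Galnt6* and *Hpgds*, and wholly below a 2-fold lower level for 0. Of the 19 macrophage markers, 7 had an interval within a 2-fold change.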

How the data were processed

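Poly(A) RNA of mouse quadriceps was sequenced in 30 libraries as paired reads, and the authors deposited raw counts per gene, with whole numbers for 56748 Ensembl genes and no normalization. The submitters' processing notes name HISAT2 2.0.5 and the build GRCm39. The methods name Rsubread among the packages used, and the treatment of strand and multiply mapped reads is not given in the sources used here. Of the genes, 56017 were matched to GENCODE vM39.

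Groups follow the labels. Differences were tested with edgeR 4.0.16 in R 4.3.3 (TMM, filterByExpr, robust quasi-likelihood F-test, two-sided) on the 12 libraries compared, with the deposited set as covariate and the 37 mitochondrially encoded genes left out. Benjamini-Hochberg adjustment ran over the 15867 genes tested, with a threshold of 0.05. Intervals are Wald intervals at 95% with the posterior quasi-dispersion. CPM values are on 1 TMM scale over all 30 libraries. Totals were 16362704 to 23707138 counts. Nothing says whether mice came from separate litters, and p-values measure the spread between these mice.

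Genes were named by rule: the CTG repeat genes, genes past the threshold (there were 0), the 6 higher and 6 lower genes of at least 5 CPM with the smallest unadjusted p among those with no overlap in either set, in each list the member with the smallest p if under 0.05, 6 genes chosen for their change between NT and WT in earlier work on these data, and control genes. Others were named after their values were seen. A gene that met the rule is not reported here. The members and the 34 gene lists were chosen with earlier results of these data known. Alternatives used DESeq2 1.42.0, limma 3.58.1 (voom), other scalings and filters, sex as a covariate, all 30 libraries, single sets and each mouse left out.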

Additional observations from a re-analysis of the deposited data

Results flagged for a closer look

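Of the named genes, 94 combinations of a gene and a group were examined for a mouse that lay far from the others of its group by Dixon's criterion, which chance alone meets in about 1 of 20 groups. It was met 6 times, against 4.7 at that rate. The rate need not hold here, since each group pools the 2 sets and some genes were chosen for their separation in these data. Among the mice at 5.3 mg/kg, D stood apart for 1 gene. *Nr3c1*, the glucocorticoid receptor, was at 99.0 CPM in D and at 129 to 133 CPM in A to C. *Zfp280b* was at 14.3 CPM in A and at 11.1 to 11.6 CPM in B to D. Among the NT mice, NT 8 stood apart for *Mapkap1* (40.4 CPM, the others 44.5 to 47.7) and for *Ythdc1* (45.3 CPM, the others 29.99 to 36.2). NT 3 did so for *Slc12a4* (18.7 CPM, the others 10.9 to 13.6) and NT 2 for *Kcnab1* (6.79 CPM, the others 2.11 to 4.31).

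The macrophage markers also stood above NT in libraries outside the comparison. Their summed CPM had a median of 356 at 21.2 mg/kg pacDNA-L9 (175 to 430, n = 3) and of 509 at 42.4 mg/kg (374 to 555, n = 3). The mice given Brush, the polymer without oligonucleotide, were at 277 and 299 (median 288), and those given pacDNA-Scr, the conjugate with a scrambled sequence at the same 5.3 mg/kg, at 159 and 231 (median 195.0). Mice given 5.3 mg/kg free L9 had 92.8 to 155. The 8 NT mice ranged from 99.4 to 189. Each of these groups other than free L9 had a median above the highest NT mouse. These groups were set beside the same NT mice, and differences between the groups were not tested.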

How the results depend on the processing

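The count of genes past the threshold was 0 in the reported fit. It was 14 with DESeq2 and 9 without a filter on low counts, and 0 to 1 with each mouse left out in turn, the 1 being *Mpeg1* without NT 6 and *Tmem132b* without mouse D. It stayed at 0 under the other 12 alternatives. *Mpeg1* had adjusted p-values of 1.39e-07 to 1.00 over 26 alternatives, with log2 fold changes of 1.35 to 1.66, and *Cd68* had log2 fold changes of 1.1 to 1.43. The number of genes with an interval within a 2-fold change was 10093 to 12953 over the alternatives, with 11335 to 12496 when 1 mouse was left out. The alternatives tested different numbers of genes. Their shares ran from 41.7% without a filter on low counts to 93.6% with at least 10 counts in every library, against 77.7%. The macrophage markers higher at an unadjusted p under 0.05 were 7 of 21 tested in the first set alone. With 1 mouse left out they were 6 of 20 (without mouse A) to 13 of 19 (without NT 5). The interaction with the set had 0 genes under the alternatives fitted for it (DESeq2 size factors, at least 10 counts in every library, no robust estimation and each mouse left out). Library size alone moved the median log2 fold change of all genes to 0.08 and gave 700 higher and 59 lower genes at an unadjusted p under 0.05, against 425 and 162. Protein-coding genes alone gave 318 and 231, and DESeq2's size factors 398 and 211. The list of genes changed between NT and WT held 451 genes and 1298 without the limit on the fold change. Of the fold changes of named genes under alternatives, 1456 moved by less than their standard error, 86 by more, and 11 passed the threshold. No paired analysis was possible because the treated mice carry letters and the NT mice numbers. Depth limits genes under 1 CPM, and 2 treated mice a set limit every value within a set.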
